A study of Caenorhabditis elegans with 2 samples.

Results

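Small nucleolar RNA (snoRNA) genes that lie inside a protein-coding gene on the same strand were examined for binding sites in a chromatin immunoprecipitation (ChIP-seq) series from Caenorhabditis elegans embryos. A gene of biotype snoRNA on a nuclear chromosome was taken when its whole length fell within the span of a same-strand protein-coding gene, the host, in the Ensembl annotation of the WBcel235 assembly. This gave 183 hosted genes of the 346 nuclear snoRNA genes. The remaining 163 had no same-strand host: 33 lay only within genes of the opposite strand and 130 within no protein-coding gene. The 183 had 159 hosts, of which 136 held 1 snoRNA gene, 20 held 2 and 3 held 3 or more, and 3 of the genes had 2 hosts.

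The study has 1 group of 2 biological replicates and no second condition, so no treatment or genotype was compared. Both came from whole mid-embryos of 3.5 hours, synchronised by egg bleaching, of strain OP787. Per the labels the strain carries the integrated transgene wgIs787, which holds T27A8.2 fused to the TY1, EGFP and 3xFLAG tags together with unc-119(+), in an unc-119(tm4063) background. The precipitation used an antibody against GFP. The labels name tab-1 as the target while the genotype tags T27A8.2, so the samples are referred to as labelled tab-1, and which protein was precipitated was not settled here. A control experiment that the labels point to was not used here, and read depth is not given in the sources used here.

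SnoRNAs guide chemical modification of ribosomal RNA in the nucleolus. Box C/D snoRNAs direct ribose methylation by fibrillarin and box H/ACA snoRNAs direct pseudouridylation by dyskerin. In vertebrates most snoRNAs are cut out of the spliced introns of their hosts and depend on the host's promoter. A separate way of making small RNAs is used at tRNA genes, where RNA polymerase III reads a promoter inside the gene: the factor TFIIIC binds an A box and a B box, TFIIIB with the TATA-binding protein sits just upstream, and a run of T ends the transcript.

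A site is a peak, or a merged set of overlapping peaks, in the authors' conservative list, whose peaks passed a limit on the irreproducible discovery rate (IDR), a measure of how unlike the replicates rank a peak. That list held 1266 sites on the nuclear chromosomes, against 453 in the own list of replicate 1 and 726 in that of replicate 2. A gene was counted as having a site when a summit, the point of highest signal in a peak, lay within 200 bp of it. Signal values are the authors' own, on a scale that is not stated, and are compared only within a list.

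Of the 183 hosted snoRNA genes, 27 had a site (14.8%, 95% Wilson interval 10.3 to 20.6). Over all 46890 annotated nuclear genes the share was 3.33%. The 27 genes shared 26 sites, because C51F7.3 and C51F7.4 lie beside the same summit. Of the snoRNA genes without a same-strand host, 35 of 163 had a site (21.5%, 15.9 to 28.4), which were 8 of the 33 genes within opposite-strand hosts and 27 of the 130 genes within none. The intervals of hosted and other snoRNA genes overlap, and the difference between them was not tested.

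**Figure D1:**
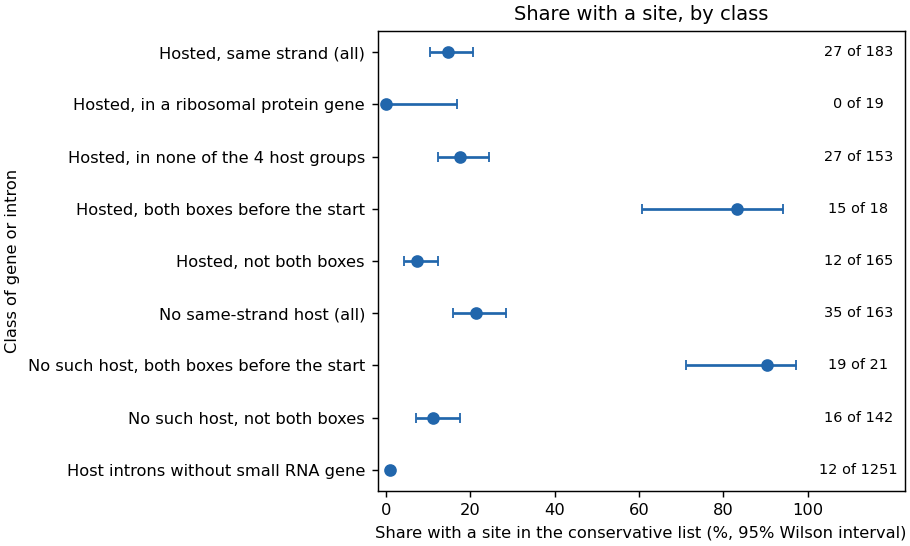
Share of snoRNA genes, and of host introns without a small RNA gene, that had a site in the conservative list (x axis, percent), by class (y axis). Points are shares, bars are 95% Wilson intervals and the counts are at the right. A site was found at 15 of 18 hosted genes with both boxes before the start against 12 of 165 without both. The same split among the other snoRNA genes was 19 of 21 against 16 of 142. The mismatches and window allowed for the boxes were chosen after sequences at these genes had been seen.

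The sites of hosted snoRNA genes ranked high in the list. Of the 100 strongest sites 10 belonged to them, as did 21 of the 300 strongest. The median signal at the 27 genes was 219, with quartiles of 155 and 420 and a range from 69.3 to 1129. Over all 1266 sites the median was 95.3, with quartiles of 79.9 and 142. At the 35 other snoRNA genes with a site the median was 338.

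The stretches of DNA just before the snoRNA genes with a site often held letters typical of a tRNA gene. The sequences shown first are from 5 of the 15 genes that carried both an A box and a B box before the start, printed so that the spacing of the boxes and their place beside the snoRNA can be seen. Each line has the 100 bases before the annotated start and the first 20 bases of the snoRNA, 5′ to 3′ along its strand, from the RefSeq copy of the WBcel235 genome. Capitals mark the A box (first) and the B box (second).

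Y43F8C.22, chrV:19643168-19643287, minus strand: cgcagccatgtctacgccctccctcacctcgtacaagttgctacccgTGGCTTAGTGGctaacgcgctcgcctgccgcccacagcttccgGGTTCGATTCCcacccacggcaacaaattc
C05D2.15, chrIII:5602160-5602279, minus strand: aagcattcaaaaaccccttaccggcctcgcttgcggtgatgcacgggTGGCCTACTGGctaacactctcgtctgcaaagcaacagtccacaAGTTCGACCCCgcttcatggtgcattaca
M106.6, chrII:10840217-10840336, plus strand: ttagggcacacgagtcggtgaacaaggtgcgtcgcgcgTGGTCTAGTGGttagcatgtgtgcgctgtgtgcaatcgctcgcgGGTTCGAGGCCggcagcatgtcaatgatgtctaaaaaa
T24H7.6, chrII:6248617-6248736, plus strand: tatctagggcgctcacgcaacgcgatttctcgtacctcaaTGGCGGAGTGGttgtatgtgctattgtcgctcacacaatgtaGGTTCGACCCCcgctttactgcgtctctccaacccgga
K11C4.6, chrV:6888976-6889095, plus strand: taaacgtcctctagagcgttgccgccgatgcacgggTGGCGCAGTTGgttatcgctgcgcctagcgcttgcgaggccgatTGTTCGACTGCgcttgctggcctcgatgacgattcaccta

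The A box searched was TGGC, then any 2 bases, then AGTGG, and the B box was GGTTCGA, any 2 bases, then CC. Up to 2 mismatches were allowed among the 9 fixed bases of each, on the sense strand, from 120 bases before to 30 after the start, with 20 to 80 bases between the starts of the boxes. The boxes of Y43F8C.22 and T24H7.6 had no mismatch in either box. The genes M106.6 and K11C4.6 had an A box with 1 mismatch, and their B boxes had 0 and 2. The tolerance and window were chosen after these sequences had been seen. Run within the own sequence of the 612 annotated nuclear tRNA genes, in place of that window, the same box forms and spacing found the pair in 556 (90.8%).

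Next come sequences at the sites without a box pair and at a gene without a site. The stretch before C51F7.3, beside the strongest site of the whole list, holds a B box (capitals) and no A box within the allowed mismatches. ZK994.7, at the sixth strongest site, has no pair but holds the word TGTCGG (capitals). R151.13, in the ribosomal protein gene rpl-6, has no site and is shown for contrast, with no capitals.

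C51F7.3, chrV:12303608-12303727, plus strand: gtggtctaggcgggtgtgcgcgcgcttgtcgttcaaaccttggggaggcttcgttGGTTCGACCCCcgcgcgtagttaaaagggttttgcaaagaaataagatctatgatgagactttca
ZK994.7, chrV:8500479-8500598, plus strand: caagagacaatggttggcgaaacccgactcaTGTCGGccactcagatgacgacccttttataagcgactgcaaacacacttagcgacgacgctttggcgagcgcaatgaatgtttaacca
R151.13, chrIII:7209300-7209419, plus strand: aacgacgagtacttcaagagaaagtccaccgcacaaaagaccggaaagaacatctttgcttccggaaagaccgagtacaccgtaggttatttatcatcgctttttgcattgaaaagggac

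C51F7.3 itself is a box C/D snoRNA of 76 bases, and its whole gene is shown with the C box word TGATGA and the D box word CTGA in capitals.

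C51F7.3, chrV:12303708-12303783, plus strand: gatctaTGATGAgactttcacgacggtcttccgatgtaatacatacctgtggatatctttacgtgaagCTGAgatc

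The pair of boxes was found before 15 of the 27 hosted genes with a site (55.6%) and before 3 of the 156 without (1.92%). Over all nuclear genes 125 of 46890 windows held it (0.267%). On the opposite strand the pair was found in 0 of the 27 and 0 of the 156, against 128 of all 46890 windows (0.273%). Among the other snoRNA genes the pair was found in 19 of the 35 with a site (54.3%) and 2 of the 128 without (1.56%). Read the other way, 15 of the 18 hosted genes with the pair had a site (83.3%, 60.8 to 94.2), against 12 of the 165 hosted genes without it (7.27%, 4.21 to 12.3). Because the tolerance and window were chosen after sequences at genes with a site had been seen, these shares are a description and not a test.

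The boxes were also counted singly. An A box was found before 20 of the 27 hosted genes with a site and 20 of the 156 without, and a B box before 19 and 24. Over all nuclear genes an A box was in 8.32% of windows and a B box in 6.62%. At least 1 of the boxes was present at 23 of the 27 genes with a site (85.2%) and at 40 of the 156 without (25.6%), against 14.1% of all windows. With 1 mismatch allowed the pair was found at 7 of the 27 and 1 of the 156, and with 3 at 22 and 33. An A box with no mismatch, searched on both strands from 250 bases before to 50 after the start, was in 5 of the 27 windows, 1 of the 156, and 219 of all 46890 (0.467%).

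The boxes lay at a similar distance from each snoRNA. At the 15 genes with a site and the pair, the A box began 45 to 74 bases before the annotated start (median 61) and the B box 6 to 24 bases before it (median 17). The distance between the starts of the boxes had a median of 44 bases and ranged from 32 to 51. In the 556 tRNA genes with a pair the median was also 44, with a range from 41 to 68. The shortest distance, 32 bases, was at D1046.6.

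At 3 hosted genes with a site the annotation itself places a tRNA pseudogene, a copy that resembles a tRNA gene, on the same strand before the snoRNA. It runs from 68 bases before to 3 bases after the first base of T08B2.13, from 62 before to 7 after that of F19H8.6, and from 65 before to 8 after that of D1046.6. None of the 156 hosted genes without a site had one within the 100 bases before its start. Among the other snoRNA genes it was 0 of the 35 with a site and 1 of the 128 without. The latter, Y59E1B.14, carried both boxes with no mismatch in either, and had a candidate of signal 27.8 but no site. No hosted snoRNA site had its summit within 200 bp of an annotated tRNA, snRNA or miRNA gene. Genes of biotype ncRNA lay that near the summit at 9 of the 27 hosted genes with a site, on the same strand at 3. At each of the 9 the summit fell inside such an ncRNA gene, as at C05D2.15 and D1046.6. The share over all sites was not counted, and which gene a site belongs to was not tested.

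**Figure D2:**
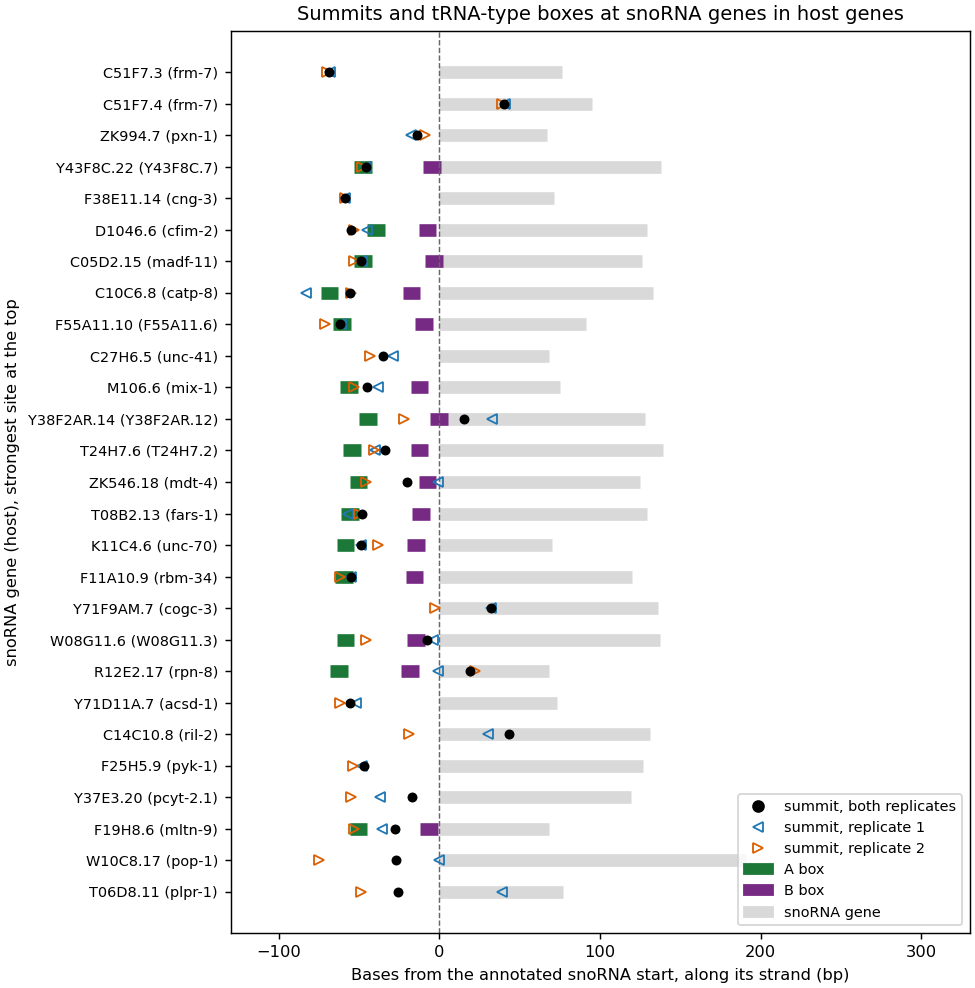
Position of site summits and box pairs along the strand at the 27 hosted snoRNA genes with a site (x axis, bases from the annotated start; y axis, gene and host, strongest site at the top). Black dots are summits of both replicates, open triangles are summits of each replicate's strongest own peak, green and purple bars are A and B boxes and grey bars are snoRNA genes; 22 of 27 black dots lie before the start, and 15 of the genes carry both boxes.

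The summits lay close to the start of the snoRNA and mostly before it. In 22 of the 27 genes (81.5%, 63.3 to 91.8) the summit preceded the start, by 8 to 69 bases with a median of 46.5. In the other 5 it lay inside the gene, at bases 15 to 43 after the start. These 5 were C51F7.4, Y38F2AR.14, Y71F9AM.7, R12E2.17 and C14C10.8. The median over all 27 was 35 bases before the start, and the summit of the 15 genes with a box pair lay a median of 17 bases after the start of the A box. At the 35 other snoRNA genes with a site the median was 48 bases before the start. In the other thresholded list of both replicates the median offset of the hosted genes was -45, and the difference from the other snoRNA genes was not tested.

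Each replicate's strongest own peak within 200 bp gave a similar picture. In replicate 1 the summit preceded the start at 21 of the 27 genes, with a median offset of 38 bases before it, and in replicate 2 at 25, with a median of 50 before it. The summits of the replicates differed by a median of 11 bp, were within 20 bp of each other at 18 of the 27 genes, and were at most 88 bp apart, at T06D8.11. The strongest own peaks of the replicates need not be the same peak.

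The host's 5′ end was seldom near. The summit lay 697 to 16026 bp downstream of the 5′ end of the host gene (median 2530). Measured to the nearest 5′ end of any host transcript, the median distance was 1372 bp. At 4 of the 27 genes (14.8%) the summit fell in a host promoter window, from 1000 bp before to 200 bp after a host transcript's 5′ end, and 37 of all 183 snoRNA starts (20.2%) fell in such a window. Those 4 were D1046.6 in cfim-2, F55A11.10 in F55A11.6, Y71F9AM.7 in cogc-3 and Y37E3.20 in pcyt-2.1. At F55A11.10 the summit was 62 bp inside a transcript's 5′ end, so the snoRNA and the promoter of that transcript cannot be told apart by position.

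The strongest site of the whole list, with a signal of 1129, lay on V in frm-7, which encodes a FERM domain protein. Its summit at 12303639 was 69 bases before C51F7.3 (12303708 to 12303783, plus strand), in intron 4, and 40 bases inside C51F7.4 (12303599 to 12303693), a second snoRNA gene that is not wholly within an intron. Replicate 1 alone gave a signal of 501 and replicate 2 alone 623, rank 5 in each replicate's own candidates. In both replicates the summit was 68 to 70 bases before C51F7.3, so the replicates placed it almost identically.

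ZK994.7 (V, 8500579 to 8500645, plus strand) lies in intron 17 of pxn-1, which encodes a peroxidasin of the extracellular matrix. Its site ranked 6 with a signal of 681, and the replicates alone gave 321 and 356. The summit was 14 bases before the start, nearer than at most of the others, and 18 and 9 bases before it in the replicates. Neither box was found before it in the allowed form.

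Y43F8C.22 (V, 19643050 to 19643187, minus strand) is an H/ACA snoRNA gene in intron 3 of Y43F8C.7. Its site ranked 9 with a signal of 572, and 248 and 303 in the replicates. The summit was 46 bases before the start, within the A box, and 46 and 48 bases before it in the replicates.

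F38E11.14 (IV, 9477629 to 9477699, minus strand) lies in intron 12 of cng-3, a cyclic nucleotide-gated channel subunit gene. Its signal was 467, with 222 and 241 in the replicates, and all 3 summits were 59 bases before the start. D1046.6 (IV, 8927265 to 8927393, plus strand) lies in intron 5 of cfim-2, named for a cleavage factor that acts in messenger RNA 3′ end formation. It also had a signal of 467, with 181 and 281 in the replicates, and a summit 55 bases before the start. The genes had equal signals to 3 digits. F38E11.14 had an A box that begins 65 bases before the start but no pair. D1046.6 carried both boxes, each with 2 mismatches, and a tRNA pseudogene.

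C05D2.15 (III, 5602054 to 5602179, minus strand) lies in intron 4 of madf-11, a MADF domain gene. Its signal was 433, with 193 and 243 in the replicates, and its summit 49 bases before the start. C10C6.8 (IV, 11474059 to 11474191, minus strand) lies in intron 7 of catp-8, a P-type ATPase gene. Its signal was 407, with 177 and 229 in the replicates. The summit was 56 bases before the start in the combined list and 83 and 55 bases before it in the replicates, so the 2 replicates placed this one 28 bp apart.

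F55A11.10 (V, 11782992 to 11783082, plus strand) is a box C/D snoRNA gene in intron 1 of F55A11.6. Its signal was 402, with 162 and 242 in the replicates, and its summit 62 bases before the start. C27H6.5 (V, 9970204 to 9970271, minus strand) lies in intron 3 of unc-41, a stonin gene of synaptic vesicle recycling. Its signal was 401, with 188 and 202 in the replicates, and its summit 35 bases before the start. C27H6.5 had an A box in the allowed form but no pair.

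M106.6 (II, 10840317 to 10840391, plus strand) lies in intron 13 of mix-1, which encodes an SMC subunit of condensin and of the dosage compensation complex. Its signal was 337, with 150 and 173 in the replicates, and its summit was 45 bases before the start and 16026 bp from the host's 5′ end, the farthest of the 27. Y38F2AR.14 (IV, 2408508 to 2408635, minus strand) lies in intron 2 of Y38F2AR.12. Its signal was 271, with 147 and 140 in the replicates. Its summit was 15 bases after the start in the combined list, 33 after it in replicate 1 and 22 before it in replicate 2, so the side of the start was not the same in both replicates.

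All 27 genes had a peak of their own in each replicate's ranked candidates. This was close to given, because the sites come from a list of both replicates and the ranked candidates number 74963 in replicate 1 and 63146 in replicate 2. In replicate 1 the signals ran from 36 to 501 with a median of 107, and in replicate 2 from 32.4 to 623 with a median of 127. Of the 27, 19 were in the own thresholded lists of both replicates, 5 in that of replicate 2 alone and 3 in neither. The 3 were Y37E3.20 in pcyt-2.1, W10C8.17 in pop-1, which encodes the TCF factor of Wnt signalling, and F19H8.6 in mltn-9. Their signals in the conservative list were 105, 69.4 and 75.8, among the 5 lowest of the 27.

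**Figure D3:**
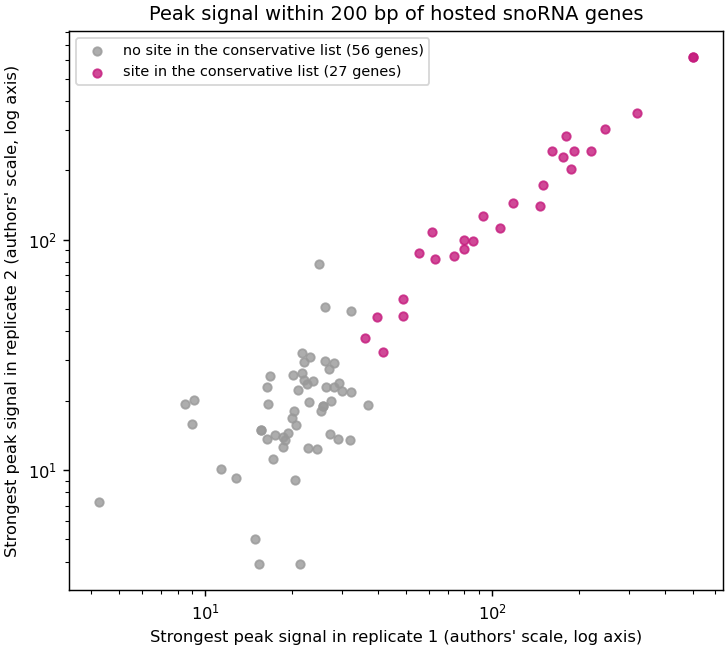
Strongest peak signal within 200 bp of each hosted snoRNA gene in the ranked candidates of replicate 1 (x axis) and replicate 2 (y axis), on log axes and the authors' scale. Each point is a gene with a candidate in both replicates; the 27 with a site in the conservative list (pink) run from 36 to 501 in replicate 1 and from 32.4 to 623 in replicate 2, mostly above the 56 without one (grey).

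The hosts were grouped by the prefix of their symbols alone, which can differ from the function of the protein, and prpf-4 fell among the other hosts. Of the 19 snoRNA genes in ribosomal protein genes (rpl and rps), 0 had a site, with a Wilson upper bound of 16.8%. The same was true of the 5 in translation factor genes, the 4 in splicing factor genes and the 2 in chaperone genes, so 0 of these 30 had a site (upper bound 11.4%). All 27 genes with a site were among the 153 in other hosts (17.6%, 12.4 to 24.5). The count depends on the 200 bp limit: at 500 bp F54E7.10 in rps-12 and Y24D9A.9 in rpl-7A would have a site, with summits 282 and 362 bp away. The difference between the groups was not tested.

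The 3 hosts with the most snoRNA genes had no site at any of them. They were nol-56, which encodes a core protein of box C/D snoRNA particles and holds 4, rpl-6 with 3 and top-2, the DNA topoisomerase II gene, with 3. All 4 in nol-56 and all 3 in rpl-6 had a candidate, with signals from 11.6 to 33.9 and from 38.9 to 55.2. The snoRNA genes in top-2 had no candidate in the list of both replicates.

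The length of intron before the snoRNA overlapped widely between genes with and without a site, and the difference was not tested. Before the 26 genes with a site that lie wholly within an intron, the intron ran for 68 to 5109 bp (median 153.5, quartiles 108 and 370). Before the 124 without a site it ran for 6 to 9381 bp (median 114.5, quartiles 33.8 and 634), and 70 of these 124 had at least 68 bp. In the ribosomal protein genes the stretch was 6 to 72 bp with a median of 29. After the snoRNA the intron went on for a median of 50.5 bp at genes with a site and 142.5 bp at genes without.

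Base composition moved with the sites as well. The 100 bases before the start held 48% to 65% G and C at the 27 genes with a site (median 56%) and 16% to 60% at the 156 without (median 40%). Of those 156, 30 reached 48%, and 1 of the 30 had the box pair. The part of base composition in the calling of sites was not tested.

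**Figure D4:**
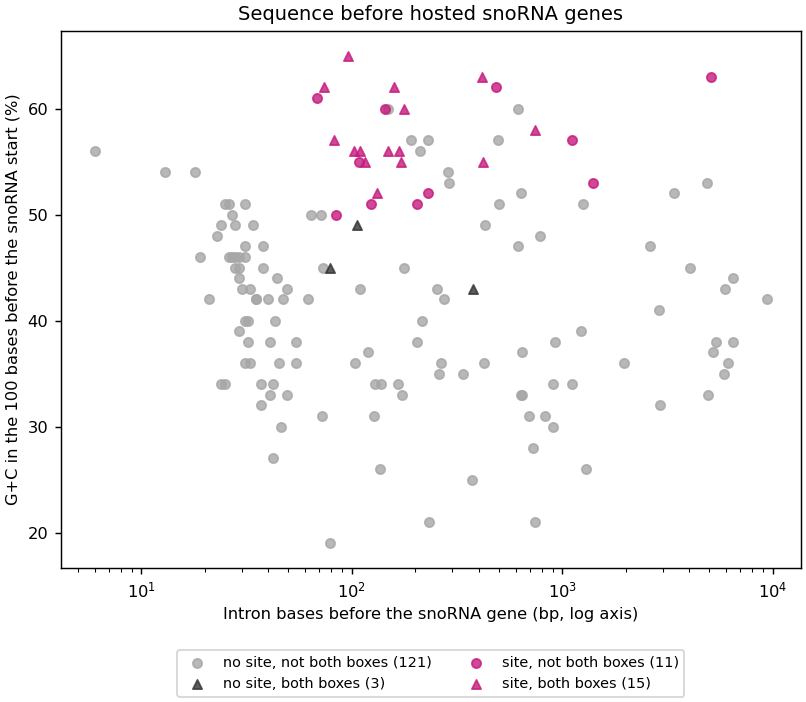
Intron bases before each hosted snoRNA gene (x axis, log scale) and the percentage of G and C in the 100 bases before its start (y axis), for the 150 genes wholly within an intron. Pink marks a site, grey none, and triangles mark both boxes; the genes with a site have at least 68 intron bases before them and all that are plotted have 50% G and C or more.

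A run of at least 4 T within 50 bases after the snoRNA end, the form in which RNA polymerase III ends transcripts, was present at 26 of the 27 genes with a site (96.3%) and at 109 of the 156 without (69.9%). Among other snoRNA genes it was present at 30 of 35 (85.7%) and 76 of 128 (59.4%), and at snRNA genes at 76 of 129 (58.9%). The share over all nuclear genes was not counted. The 50 bases can reach the end of the intron, and a run of T belonging to the intron's end was not told apart from one of the snoRNA. That end lay a median of 50.5 bp after the snoRNA at hosted genes with a site and 142.5 bp after it at those without. Whether a run of T ends a transcript was not tested. The exception among the 27 was C51F7.4, whose end lies just before C51F7.3.

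By their own letters, 6 of the 183 hosted genes were classed as box C/D, 58 as H/ACA and 119 as neither. A site was found at 3 of the 6 C/D genes, 11 of the 58 H/ACA genes (19%, 10.9 to 30.9) and 13 of the 119 unclassed genes (10.9%, 6.5 to 17.8). The class rule asked for exact words near the ends, and variants of the boxes were not searched.

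Single words were counted on both strands from 250 bases before to 50 after the start. GTTCGA, the core of the B box, was in 13 of the 27 windows with a site (48.1%), 18 of the 156 without (11.5%) and 10.3% of all windows. Its variant GTTCAA was in 10 (37%), 29 (18.6%) and 24.6%. GCGCGC was in 6 (22.2%), 6 (3.85%) and 2.64%. TATAAA was in 6 (22.2%), 32 (20.5%) and 37.4%, and GAGAGA in 7 (25.9%), 34 (21.8%) and 17.5%. TGTCGG, added after it was seen before ZK994.7, was in 4 (14.8%), 17 (10.9%) and 6.96%, and in 44 of the 129 windows at snRNA genes (34.1%).

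Introns of the same hosts with no tRNA, snoRNA, snRNA or miRNA gene in or within 200 bp of them seldom held a summit. By coordinates there were 1251 such introns, and 12 held a site (0.959%, 0.55 to 1.67), from 9 distinct summits. This count was 1 in replicate 2's own list and 0 in replicate 1's. Of the 154 introns that carry a hosted snoRNA gene, 33 held a site (21.4%, 15.7 to 28.6), anywhere in the intron. The latter introns were longer, with a median of 391 bp against 143 bp. Among the 450 introns without a small RNA gene of at least that median length, 11 held a site (2.44%, 1.37 to 4.32). Introns of different transcripts of a gene can overlap and were counted separately.

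Candidates were common at hosted snoRNA genes. A candidate in the authors' ranked list of both replicates lay within 200 bp of 130 of the 183 (71%, 64.1 to 77.1). The share was 46.3% of all nuclear genes, and 103 of the 163 other snoRNA genes (63.2%). The ranked list also holds the peaks of the conservative list, so all these shares include genes with a site. At the 103 hosted genes with a candidate and no site, the strongest candidate within 200 bp had a median signal of 31.9, from 3.4 to 105. The median over all single candidates was 24.4, which is an unlike measure because no strongest value was picked there. The summits of these strongest candidates were spread out: 57 of 103 lay before the start (55.3%), and 21 of 103 between 8 and 70 bases before it (20.4%). A site was instead taken as the one nearest the gene, so the positions of sites and candidates were not chosen alike.

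**Figure D5:**
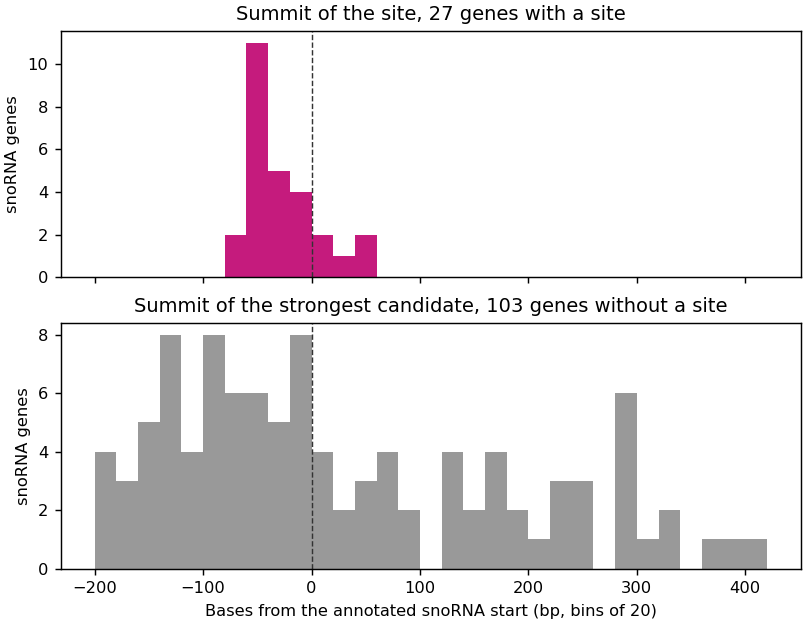
Number of hosted snoRNA genes (y axis) by the position of the summit relative to the annotated start (x axis, bins of 20 bp). The upper panel has the 27 genes with a site, taking the summit nearest the gene, from 69 bases before to 43 after the start. The lower panel has the strongest candidate within 200 bp of the 103 genes with a candidate and no site, spread from 196 bases before to 401 after.

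The strongest candidates at genes without a site were at F39B2.14 in tmem-107 (signal 105, 121 bases before the start), C16D9.11 in rol-3 (74.3, 73 bases before) and F22D6.16 in prpf-4 (63.6, 65 bases after). The F39B2.14 candidate had its summit 60 bp before the 5′ end of tmem-107, outside the host span and in the host promoter window, while the other two summits lay outside such windows. Their scores, which fall as the IDR rises, were 538, 574 and 807, below the 830 that every peak of the thresholded lists reached. The replicates were unequal at F39B2.14, with a signal of 24.9 in replicate 1 and 78.7 in replicate 2. They were 26 and 50.8 at C16D9.11 and 32.2 and 48.8 at F22D6.16. F39B2.14 and C16D9.11 were in replicate 2's own thresholded list and not in replicate 1's.

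The 3 hosted genes with a box pair and no site were R166.7 in mnk-1, T23B12.13 in mrps-2 and D1054.17 in D1054.3. R166.7 had a candidate of signal 55.1 with its summit 57 bases before the start, beside an A box that begins 50 bases before it. T23B12.13 had one of signal 39.3, 127 bases before the start. D1054.17 had none in the list of both replicates, while its strongest own candidates had a signal of 17.1 in replicate 1 and 11.2 in replicate 2, 71 and 160 bases after the start.

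The 200 bp limit decided few genes. The hosted genes with a site whose summits lay farthest outside the gene were F38E11.14 at 59 bp, F55A11.10 at 62 bp and C51F7.3 at 69 bp. The nearest beyond the limit were C24A1.8 in elf-1 at 264 bp, F54E7.10 in rps-12 at 282 bp and Y24D9A.9 in rpl-7A at 362 bp, with signals of 110, 116 and 72.7. The summits beyond F54E7.10 and Y24D9A.9 lay 202 and 80 bp before a host transcript's 5′ end, within the host promoter window.

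Genes for the machinery of snoRNAs and of RNA polymerase III were looked at for sites in their own promoter windows. The list had 15 genes: the box C/D proteins fib-1, nol-56, nol-58 and M28.5, the H/ACA proteins Y48A6B.3, Y66H1A.4, nola-3 and K01G5.5, and tbp-1, brf-1, rpc-1, rpc-2, snpc-4, snpc-1.1 and snpc-3.1 of the transcription machinery. Only fib-1, which encodes fibrillarin, had one, with a signal of 65.1 at rank 1231 of 1266. Of all 19973 protein-coding genes, 2.97% had a site in that window.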

How the data were processed

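The files were peak lists on ce11, per the labels; the sources used here do not name the aligner, the peak caller or a read depth. The signal of each peak is the authors' deposited value, on an unstated scale, and was used only within a list. The score, also deposited by the authors, is lower where the IDR is higher, and 830 was the lowest in each thresholded list. The authors' lists of both replicates and of each replicate were used as deposited. Peaks overlapping by at least 1 bp were merged, keeping the strongest summit and signal. No peak ended beyond a chromosome of WBcel235, the same assembly as ce11. Gene models came from Ensembl release 115, and sequences and the older names in the gene list from RefSeq. Of the 1437 nuclear candidates that reach a score of 830, 124 are not in the conservative list, and no hosted snoRNA gene had one of these within 200 bp.

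The genes described and all lists were chosen with earlier results of these data known. The 12 genes with the strongest sites are named with full values. Shares carry 95% Wilson intervals, which treat genes as independent and cover counting error only. No test was made, because there is 1 group and each gene has 2 replicate values. The box search was tested on simulated sequences and the assignment of sites to genes on planted sites, while the word search was not tested. The analysis used Python with NumPy and SciPy.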

Additional observations from a re-analysis of the deposited data

How the results depend on the processing

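The counts of hosted snoRNA genes with a site, with a candidate, or with the summit before the start, and of other snoRNA genes with a site, stayed within 1.5 times under each of these settings: the other list of both replicates, each replicate's own list, a global IDR of 0.001 (sites only), 100 or 500 bp, and the requirement that the gene lie in an intron and touch no exon (hosted genes only). Hosted genes with a site numbered 19 to 30. Without 1 replicate the median signal was 133 to 162, on scales that differ between lists, and the median offset from the start was -49.5 to -45. That offset was -35 in the main setting and at 100 bp, -40 at 500 bp and -34.5 with each site counted once. It was -45 in the other list of both replicates, -45.5 at a global IDR of 0.001, and -45 for genes in an intron that touch no exon. Measured from the middle of the snoRNA gene the median offset was -83.5. Host introns without a small RNA gene that held a site fell from 12 to 0 or 1 without 1 replicate and to 0 at a global IDR of 0.001; the cause was not tested. The summit of Y38F2AR.14 moved from 15 bases after the start to -22 without replicate 1. In a setting chosen after seeing the data, with 1 mismatch the box pair was found at 7 genes with a site and 1 without, and with 3 at 33 without. No paired analysis was possible because there is 1 group. Read depth is unknown, so a site missed for lack of reads cannot be told from an absent one.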
